A study of Mus musculus with 2 samples.

Results

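The cells described here were picked from whole-lung suspensions as type 2 conventional dendritic cells, the antigen-presenting cells that carry the lectin Clec10a and the chemokine Ccl17. Expression was counted in UMIs (unique molecular identifiers), the tags that mark single captured RNA molecules. A barcode was kept with at least 200 genes and at most 20% of its UMIs in mitochondrial genes. It was a member with at least 3 UMIs of Clec10a and Ccl17 together and at least 10 of Cd74. Members had fewer than 10 UMIs over C1qa, C1qb and C1qc, and fewer than 3 UMIs of Plet1 and Krt79, of Cd79a and Cd79b, and of Siglech. Of 18031 barcodes kept in both libraries, 117 were members, 56 of 8593 in the lung after hepatic ischemia-reperfusion (HIR) and 61 of 9438 in the sham lung. Because these measured values chose the members, Clec10a, Ccl17, Cd74 and the genes used to leave barcodes out are given as description. The rule also took in cells with Xcr1 or Clec9a, markers of another dendritic cell type, and cells with monocyte genes. The members are therefore called Clec10a/Ccl17 cells below and are split by these genes.

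The study compared wild-type lung cells at 6 hours of hepatic ischemia-reperfusion with wild-type lung cells of a sham group. Its title gives the aim as the immune cells of the lung after this remote injury. There was 1 10x Genomics single-cell library per group, from lungs digested with collagenase, elastase and DNase and treated with red-cell lysis buffer. The labels name mice as the source of both libraries, whereas every feature of both count matrices is a rat Ensembl gene; they give no strain, sex, age or number of pooled animals. With 1 library per group no test between HIR and sham is possible: differences compare 2 libraries, and every interval below is an exact 95% interval that covers counting error only.

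Conventional dendritic cells take up antigen in the airway wall and lung tissue, move to the draining lymph node and present peptides on MHC class II (RT1-B and RT1-D in the rat) to T cells. The type 2 cells depend on growth signals through Flt3 and on transcription factors such as Irf4, and are known for priming helper T cells. Type 1 cells, marked by Xcr1 and Clec9a and dependent on Irf8 and Batf3, are known for cross-presenting antigen to cytotoxic T cells. During inflammation, cells that arise from monocytes can take on MHC class II and Clec10a as well.

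The HIR library held 9499 barcodes and 50801778 UMIs, and the sham library 10719 barcodes and 59566745 UMIs. The 2 libraries shared 24 barcode sequences, and 1 of these was a member. Members were deep, with a median of 13096 UMIs and 2841 genes in HIR cells and of 12912 UMIs and 2801 genes in sham cells. Mitochondrial genes took a median of 7.87% of UMIs in HIR cells and 7.36% in sham cells. Summed over members, 750438 UMIs from HIR and 802226 from sham stand behind the levels below, which are given as counts per 1000000 UMIs of those cells (CPM).

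Of the kept barcodes, 230 in HIR and 228 in sham had 3 or more UMIs of Clec10a and Ccl17, of which 179 in HIR and 183 in sham had enough Cd74. The limit on C1q genes removed the most, leaving 71 in HIR and 72 in sham. The Plet1 and Krt79 limit left 57 in HIR and 61 in sham, and the Cd79 limit removed 1 more in HIR. Members with exactly 3 UMIs of Clec10a and Ccl17 numbered 4 in HIR and 3 in sham, with a median of 82 Cd74 UMIs in HIR and 207 in sham. Just outside, 6 barcodes in HIR and 8 in sham had 2 such UMIs and met the other limits, with a median of 29 Cd74 UMIs in HIR and 134.5 in sham. No member held between 10 and 19 Cd74 UMIs, and 3 members in HIR and 6 in sham had 5 to 9 C1q UMIs.

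Clec10a/Ccl17 cells made up 0.652% (0.493 to 0.845) of kept barcodes in HIR and 0.646% (0.495 to 0.829) in sham, a ratio of 1.01 (0.689 to 1.47). The share did not differ beyond counting error, and a difference inside this interval was not detectable with this number of cells.

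Genes of MHC class II presentation were abundant in the members of both libraries. Cd74 (ENSRNOG00000018735), the invariant chain that guides MHC class II molecules, stood at 22036 CPM in HIR and 26449 CPM in sham. Per cell it ran from 25 UMIs through a median of 309 to 697 in HIR and from 20 through 361 to 744 in sham, so the groups overlapped almost fully. The alpha chain RT1-Ba stood at 7669 CPM in HIR and 9696 CPM in sham in members, and at 334 CPM in HIR and 369 CPM in sham over the other kept barcodes. The beta chain RT1-Db1 stood at 10787 CPM in HIR and 13085 CPM in sham in members, and at 492 CPM in HIR and 561 CPM in sham over the others. The alpha chain RT1-Da was at 13612 CPM in HIR and 16828 CPM in sham. RT1-Ba and RT1-Db1 were thus far above the pool of all other kept barcodes in both libraries. That pool mixes many cell types, and members were picked with a minimum of Cd74. Cd74, RT1-Ba, RT1-Db1, Clec10a and Ccl17 summed to 41788 CPM in HIR and 50208 CPM in sham in members. In barcodes rich in C1q genes, described below, the same genes summed to 34587 CPM in HIR and 35122 CPM in sham. High levels of this sum were therefore not particular to members.

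Other genes led the members over the remaining barcodes too. Fcgr2b, an inhibitory Fc receptor, stood at 417 CPM in HIR and 305 CPM in sham in members, and at 31.1 CPM in HIR and 21.5 CPM in sham over the others. Slamf7, an adhesion receptor of immune cells, stood at 152 CPM in HIR and 189 CPM in sham, and at 3.84 CPM in HIR and 3.05 CPM in sham over the others. Havcr2, the checkpoint receptor TIM-3, stood at 113 CPM in HIR and 152 CPM in sham, and at 4.76 CPM in HIR and 4.32 CPM in sham over the others.

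Clec10a (ENSRNOG00000018715), a lectin that binds galactose-type sugars, stood at 981 CPM in HIR and 592 CPM in sham. Its lowest, median and highest cell had 0, 9.5 and 55 UMIs in HIR and 0, 6 and 28 in sham. Ccl17 (ENSRNOG00000016278), a chemokine that draws Ccr4-bearing T cells, stood at 314 CPM in HIR and 386 CPM in sham. Its median was 0 UMIs in HIR and 1 in sham, and 1 sham cell held 45.2% of the sham UMIs. Most members entered through the lectin, since 52 of 56 cells in HIR and 51 of 61 in sham had 3 or more Clec10a UMIs. For Ccl17 this was so in 19 cells in HIR and 23 in sham, and for both genes in 16 in HIR and 14 in sham.

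Each cell was also thinned to 2000 UMIs, which 55 HIR and 60 sham members allowed and 1 in each library did not. A Clec10a UMI then remained in 70.9% of HIR members and 68.3% of sham members. In barcodes with Cd79 genes (B-lineage genes), which should lack Clec10a, it remained in 0 of 460 in HIR, which allows a share of up to 0.799%, and in 4 of 577 (0.693%) in sham. Those Cd79 barcodes had a median of 2640.0 UMIs in HIR and 2410.0 in sham, and their shares are used below as a measure of free RNA.

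Several genes by which conventional dendritic cells are usually known were low. Flt3, the receptor of their main growth factor, stood at 29.3 CPM in HIR and 29.9 CPM in sham. Irf4 was at 26.7 CPM in HIR and 22.4 CPM in sham, and Sirpa, an inhibitory receptor used to sort type 2 cells, at 87.9 CPM in HIR and 79.8 CPM in sham. Zbtb46, a transcription factor of the conventional lineage, was at 4.00 CPM in HIR and 2.49 CPM in sham. Cd209a had no UMI in either library, where 3 UMIs would be 4.00 CPM in HIR and 3.74 CPM in sham. Csf2ra, the receptor of the growth factor GM-CSF, stood at 273 CPM in HIR and 330.3 CPM in sham. Of 13 general dendritic cell genes, 9 in HIR and 10 in sham reached 20 CPM. The label thus rests on MHC class II, Clec10a and Ccl17 more than on lineage transcription factors and receptors.

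Among the members, 3 sets of cells could be told apart by genes that the rule did not use; these limits were set after the data had been seen. Cells with 3 or more UMIs of Xcr1 and Clec9a numbered 7 of 56 in HIR and 17 of 61 in sham, and no member of either library had 1 or 2 such UMIs. Cells without these but with 3 or more UMIs of Fcnb, Vcan, Fn1 and F13a1, genes of classical monocytes, numbered 15 in HIR and 13 in sham. Here the boundary was softer: 8 members in HIR and 9 in sham had 1 or 2 such UMIs, and F13a1 had none in any member. The remaining 34 HIR and 31 sham cells are called core cells.

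**Figure D1:**
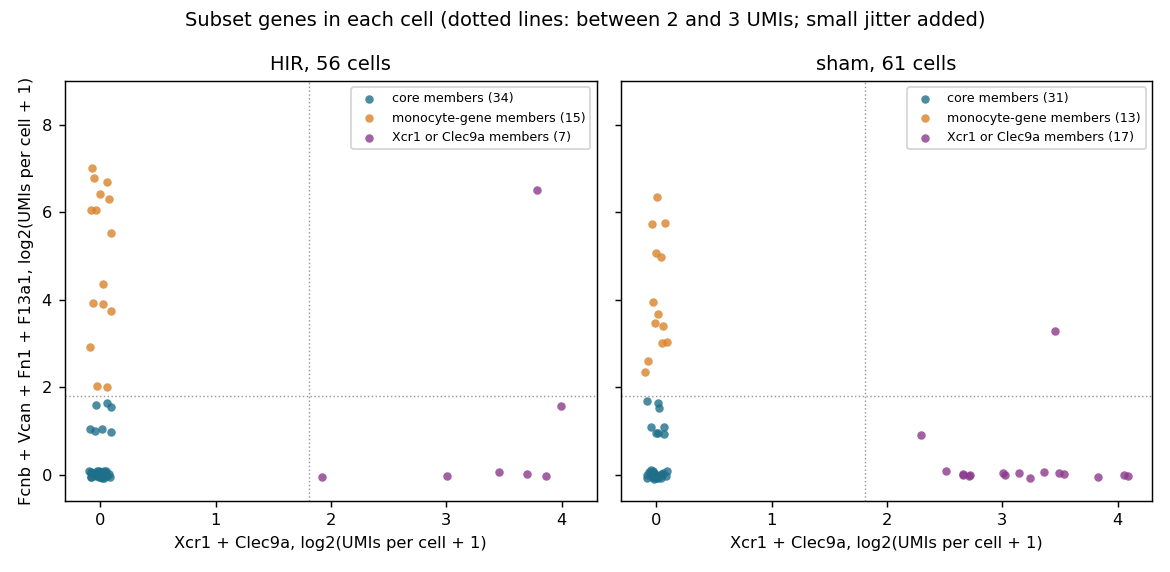
UMIs per member of Xcr1 and Clec9a together (x axis, log2 of UMIs + 1) and of Fcnb, Vcan, Fn1 and F13a1 together (y axis, same scale), HIR left and sham right, each point 1 cell with a small jitter; dotted lines lie between 2 and 3 UMIs. Cells with Xcr1 or Clec9a (7 in HIR, 17 in sham) and cells with monocyte genes (15 in HIR, 13 in sham) lie on separate arms, with 1 cell per library over both lines.

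The Xcr1 or Clec9a cells made up 12.5% (5.18 to 24.1) of members in HIR and 27.9% (17.1 to 40.8) in sham. As a share of kept barcodes their ratio HIR over sham was 0.452 (0.159 to 1.15), an interval that holds 1. Monocyte-gene cells were 26.8% (15.8 to 40.3) of members in HIR and 21.3% (11.9 to 33.7) in sham, with a ratio of 1.26 (0.558 to 2.87). Core cells were 60.7% (46.8 to 73.5) of members in HIR and 50.8% (37.7 to 63.9) in sham. None of these 3 shares differed beyond counting error. Sums over all members mix the sets in unequal parts, so values for core cells are given beside many of them.

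Genes other than those that split the sets set them apart in both libraries. In Xcr1 or Clec9a cells, Irf8, the transcription factor of type 1 and plasmacytoid cells, stood at 910.3 CPM in HIR and 1022 CPM in sham. Over the other members it was at 66.3 CPM in HIR and 15.1 CPM in sham. Tlr12, a Toll-like receptor of rodents, stood at 114 CPM in HIR and 182 CPM in sham and had no UMI in the other members. Wdfy4, required in mice for cross-presentation by type 1 cells, was at 220.0 CPM in HIR and 288 CPM in sham, and Cst3, the protease inhibitor cystatin C, at 27439 CPM in HIR and 33842 CPM in sham. These cells thus carried several type 1 dendritic cell genes beside the Clec10a or Ccl17 that admitted them, while Sirpa was low in them at 15.2 CPM in HIR and 0 CPM in sham.

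Monocyte-gene cells had Lyz2, lysozyme, at 46061 CPM in HIR and 25680.0 CPM in sham, against 3647 CPM in HIR and 2308 CPM in sham over the other members. Cd14, the lipopolysaccharide co-receptor, stood at 785 CPM in HIR and 199.8 CPM in sham, and at 46.8 CPM in HIR and 17.1 CPM in sham over the others. Cebpb, a transcription factor of monocytes and macrophages, stood at 2925 CPM in HIR and 912 CPM in sham, and at 452 CPM in HIR and 167 CPM in sham over the others. These are genes of monocytes that the split did not use.

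Core cells led in Mfge8, which bridges dying cells to phagocytes, at 335 CPM in HIR and 704 CPM in sham, against 21.4 CPM in HIR and 36.9 CPM in sham over the other members. Mmp12, the macrophage elastase, stood at 160.5 CPM in HIR and 147 CPM in sham in core cells. Rgs1, a brake on chemokine receptor signals, stood at 1458 CPM in HIR and 954 CPM in sham. Core cells also held most of the Fcgr2b, at 639.5 CPM in HIR and 527 CPM in sham.

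RNA of other cell types was present in the sums. Of 7 neutrophil genes, 6 were detected in HIR members and 4 in sham members, with a summed level of 1582 CPM in HIR and 38.6 CPM in sham; Mmp9 was at 0 in both. S100a8 of this list stood at 834 CPM in HIR and 11.2 CPM in sham, in 44 of 56 HIR cells and 9 of 61 sham cells. Its median cell had 2 UMIs in HIR and 0 in sham, its highest cell 239 UMIs in HIR and 1 in sham, and the 3 highest HIR cells held 78.4% of the HIR UMIs. Members with 20 or more UMIs of the neutrophil genes numbered 4 in HIR and 0 in sham; without them the sum was 273 CPM in HIR and 38.6 CPM in sham. Before thinning, 78.6% of HIR and 14.8% of sham members had an S100a8 UMI, against 52.7% of HIR and 7.05% of sham Cd79 barcodes, which are shallower. After thinning the share was 29.1% of HIR and 3.33% of sham members, and 40.7% of HIR and 4.68% of sham Cd79 barcodes. The 6 classical monocyte genes measured summed to 3779 CPM in HIR and 1577 CPM in sham, with F13a1 at 0. The 8 fibroblast and smooth muscle genes measured summed to 84.0 CPM in HIR and 889 CPM in sham. The 4 erythroid genes summed to 7319.7 CPM in HIR and 3803 CPM in sham over all members, but to 427 CPM in HIR and 7760.2 CPM in sham in core cells. Alveolar epithelial genes summed to 2240.03 CPM in HIR and 2082 CPM in sham, mostly Napsa and Hopx, with Sftpc at 227 CPM in HIR and 224 CPM in sham. After thinning, Napsa was found in 90.9% of HIR and 76.7% of sham members. In C1q-rich barcodes, described below, it was found in 21.3% in HIR and 16.2% in sham. In Cd79 barcodes it was found in 63.7% in HIR and 59.3% in sham. The Napsa share thus differed between sets at equal depth, so this sum is not a measure of epithelial RNA. Whether members made Napsa themselves was not tested. B cell genes summed to 5.33 CPM in HIR and 8.73 CPM in sham, and NK cell genes to 5.33 CPM in HIR and 4.99 CPM in sham. T cell genes summed to 24.0 CPM in HIR and 4.99 CPM in sham. A doublet caller marked 9 members in each library, of which 2 in HIR and 1 in sham were core cells. Of the 15 HIR and 13 sham monocyte-gene cells it marked 5 in HIR and 6 in sham. Of the Xcr1 or Clec9a cells it marked 2 in each library. Over all barcodes it marked 7.6% in HIR and 8.6% in sham. In core cells the neutrophil sum was 916 CPM in HIR and 32.6 CPM in sham, and without 1 HIR cell with 20 or more such UMIs it was 261 CPM in HIR. The fibroblast sum of core cells was 94.4 CPM in HIR and 283 CPM in sham. The part of these other cell types in the differences below was not tested.

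Genes over 2-fold apart between the libraries were few. Among genes that reached 50 CPM in 1 library and 20 UMIs over both, 2580 in all, 49 (1.9%) were over 2-fold higher in HIR members and 45 (1.74%) over 2-fold lower, after 10 CPM was added to both levels. In core cells, 56 of 2672 genes (2.1%) were higher and 83 (3.11%) lower. Over the 4967 genes at 20 CPM or more in either library, the median log2 ratio was 0.02. The named genes are the 12 largest ratios in each direction among genes at 100 CPM or more that passed limits on counting error, free RNA and single cells.

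Cytokine, chemokine and monocyte genes were among the 12 named genes that were higher in HIR. Il1b (ENSRNOG00000004649), the secreted cytokine interleukin 1 beta, stood at 1409.8 CPM in HIR and 452 CPM in sham, a ratio of 3.12 (2.76 to 3.52). Per cell it ran from 0 through a median of 11 to 94 UMIs in HIR and from 0 through 4 to 42 in sham, and it was found in 55 of 56 HIR cells and 48 of 61 sham cells. The ranges overlapped while the medians stood apart. In core cells the level was 1093 CPM in HIR and 427 CPM in sham, a ratio of 2.56 (2.13 to 3.09), and all 34 HIR core cells had a UMI against 20 of 31 in sham. After thinning, 78.2% (65.0 to 88.2) of HIR members and 50% (36.8 to 63.2) of sham members had an Il1b UMI. Cd79 barcodes had one in 10.4% in HIR and 4.85% in sham. Il1b was thus above the free RNA background in both libraries, and higher in HIR in each of the 3 sets.

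Cxcl2 (ENSRNOG00000002792), a chemokine that attracts neutrophils through Cxcr2, stood at 1463 CPM in HIR and 556 CPM in sham, a ratio of 2.63 (2.36 to 2.94). It was patchy, with a UMI in 43 HIR and 26 sham cells and a highest cell of 157 UMIs in HIR and 108 in sham. In core cells the ratio was 3.40 (2.80 to 4.14), and 1 HIR cell held 30.4% of the HIR UMIs. After thinning, 56.4% of HIR and 31.7% of sham members had a Cxcl2 UMI, against 15% of HIR and 12.8% of sham Cd79 barcodes.

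Abcb10, a mitochondrial transporter tied to heme synthesis, stood at 119.9 CPM in HIR and 31.2 CPM in sham, in 36 HIR and 19 sham cells, a ratio of 3.85 (2.45 to 6.26). Its core level was 139 CPM in HIR and 32.6 CPM in sham. Ms4a6a, a membrane protein gene of myeloid cells, stood at 183 CPM in HIR and 74.8 CPM in sham, and in core cells at 165 CPM in HIR and 67.9 CPM in sham. For Il1b, Cxcl2, Abcb10 and Ms4a6a the ratio over all members and the ratio in core cells pointed the same way.

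Of the other genes higher in HIR, Sod2, Cebpb, Cd14 and Ehd1 had a larger ratio in monocyte-gene cells than in core cells. Sod2, the mitochondrial superoxide dismutase, stood at 676 CPM in HIR and 113 CPM in sham over all members, a ratio of 5.96 (4.76 to 7.53). In monocyte-gene cells its ratio was 7.59 (5.51 to 10.7), and per cell it ran from 1 through a median of 30 to 61 UMIs in HIR and from 0 through 1 to 16 in sham. In core cells its ratio was 2.19 (1.38 to 3.55), at 160.5 CPM in HIR and 73.4 CPM in sham. That core ratio rests on few cells. A Sod2 UMI was found in 17 of 34 HIR core cells and 17 of 31 sham core cells. The median core cell had 0.5 UMIs in HIR and 1 in sham, and the highest 14 in HIR and 3 in sham. After thinning, 9.09% of HIR and 16.7% of sham core cells had a Sod2 UMI. The larger part of the Sod2 difference thus lay outside the core cells.

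Cebpb stood at 1094 CPM in HIR and 315 CPM in sham over all members, a ratio of 3.47 (3.01 to 4.01), and had a ratio of 1.87 (1.47 to 2.39) in core cells. Cd14 was at 239 CPM in HIR and 53.6 CPM in sham, with a core ratio of 1.66 (0.764 to 3.81). Ehd1, an endocytic recycling protein gene, was at 123 CPM in HIR and 21.2 CPM in sham, with a core ratio of 1.34 (0.633 to 2.92). The core intervals of Cd14 and Ehd1 hold 1. Arl5c, a small GTPase gene, stood at 155 CPM in HIR and 9.97 CPM in sham and was found in 18 HIR and 7 sham cells; its ratio was 15.5 (7.61 to 36.8). In core cells it stood at 33.0 CPM in HIR and 8.15 CPM in sham, from 14 UMIs in HIR and 3 in sham, a ratio of 4.05 (1.13 to 21.996). Pla2g7, which breaks down platelet-activating factor, was at 136 CPM in HIR and 54.8 CPM in sham, with a core ratio of 1.42 (0.814 to 2.54) whose interval holds 1. Srgn, the granule proteoglycan serglycin, stood at 412 CPM in HIR and 179.5 CPM in sham, with a core ratio of 2.27 (1.60 to 3.26). Ch25h, which makes 25-hydroxycholesterol, was at 115 CPM in HIR and 48.6 CPM in sham, with a core ratio of 5.34 (2.38 to 14.1). Over all members it was found in 17 HIR and 15 sham cells, and 1 cell held 23.3% of its HIR UMIs. It was not among the genes named in core cells by themselves. The core values of Srgn and Ch25h pointed the same way as over all members.

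**Figure D2:**
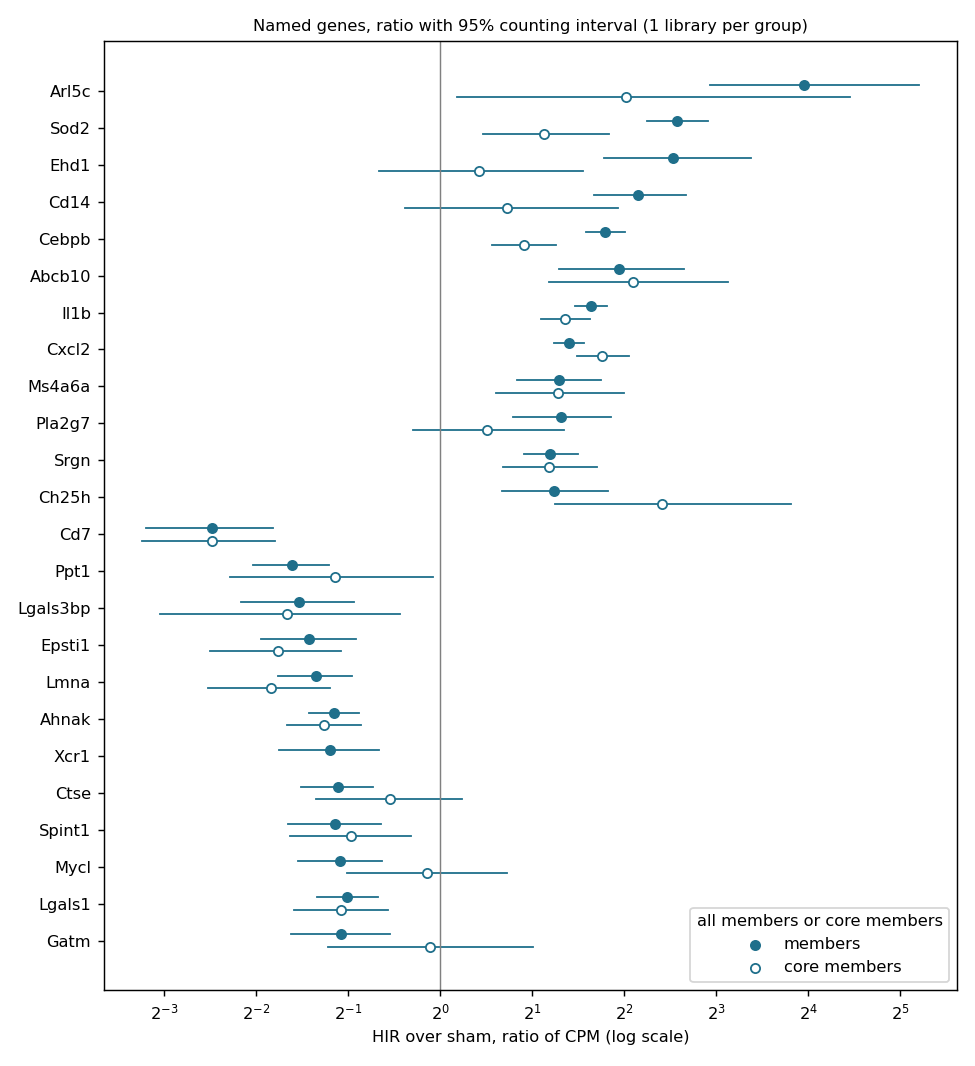
Ratio HIR over sham (x axis, log2 scale) of the 24 named genes with 95% counting intervals, filled points for all members and open points for core cells. Il1b, Cxcl2 and Abcb10 keep intervals above 1 in core cells and Cd7, Lmna, Ahnak and Lgals1 keep intervals under 1, while Ehd1, Cd14, Pla2g7, Ctse, Mycl and Gatm have core intervals that hold 1; Xcr1 has no core point because core cells lack it by definition.

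Among the genes lower in HIR, Cd7 (ENSRNOG00000036674), an immunoglobulin-family receptor best known from T and NK cells, stood at 29.3 CPM in HIR and 163 CPM in sham, that is 5.57-fold lower (3.53 to 9.19). It had a UMI in 15 of 56 HIR cells and 37 of 61 sham cells, with a highest cell of 3 UMIs in HIR and 8 in sham. In core cells the level was 49.6 CPM in HIR and 277 CPM in sham, with a UMI in 14 of 34 HIR cells and 25 of 31 sham cells. Fewer HIR cells thus carried it, with the same direction in monocyte-gene cells, where 1 of 15 HIR cells and 8 of 13 sham cells had a UMI. After thinning, 1.82% (0.046 to 9.72) of HIR members and 16.7% (8.29 to 28.5) of sham members had a Cd7 UMI, against 0% of HIR and 0.693% of sham Cd79 barcodes. The T cell and NK cell genes, with which Cd7 is usually found, were near 0 in both libraries as given above.

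Lmna, which encodes the nuclear envelope proteins lamin A and C, stood at 94.6 CPM in HIR and 242 CPM in sham, a ratio of 0.391 (0.294 to 0.516) over all members and 0.279 (0.174 to 0.435) in core cells. Ahnak, a large scaffold protein gene, stood at 217 CPM in HIR and 484 CPM in sham, a ratio of 0.449 (0.372 to 0.541) over all members and 0.418 (0.315 to 0.551) in core cells. Lgals1, the secreted lectin galectin 1, stood at 152 CPM in HIR and 305 CPM in sham, with a core ratio of 0.475 (0.332 to 0.674). All 3 were lower in HIR in core cells too. Fibroblast genes, whose cells are rich in these transcripts, were also lower in HIR in the sums given above, and their part in these differences was not tested. Epsti1, a gene induced by interferon, stood at 58.6 CPM in HIR and 157 CPM in sham.

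Of the other named genes lower in HIR, Xcr1, Ppt1, Ctse and Lgals3bp were also genes of the Xcr1 or Clec9a cells, which were 7 in HIR and 17 in sham. Ppt1, a lysosomal thioesterase, stood at 89.3 CPM in HIR and 273 CPM in sham over all members and at 372 CPM in HIR and 697 CPM in sham within those cells. Ctse, the endosomal protease cathepsin E, stood at 109 CPM in HIR and 237 CPM in sham over all members and at 425 CPM in HIR and 558 CPM in sham within them. Lgals3bp, a secreted galectin ligand, stood at 41.3 CPM in HIR and 119.7 CPM in sham over all members and at 159 CPM in HIR and 270.0 CPM in sham within them. The share of the set and the level within it both enter these sums; in core cells the ratio of Ppt1 was 0.453 (0.205 to 0.949) and that of Lgals3bp 0.316 (0.122 to 0.737). Mycl, a Myc-family transcription factor used by dendritic cells, stood at 80.0 CPM in HIR and 169.5 CPM in sham. Spint1, a protease inhibitor gene, stood at 64.0 CPM in HIR and 141 CPM in sham, with a core ratio of 0.512 (0.322 to 0.801), and Gatm, the first enzyme of creatine synthesis, at 58.6 CPM in HIR and 123 CPM in sham. In core cells the intervals of Ctse, Mycl and Gatm hold 1.

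**Figure D3:**
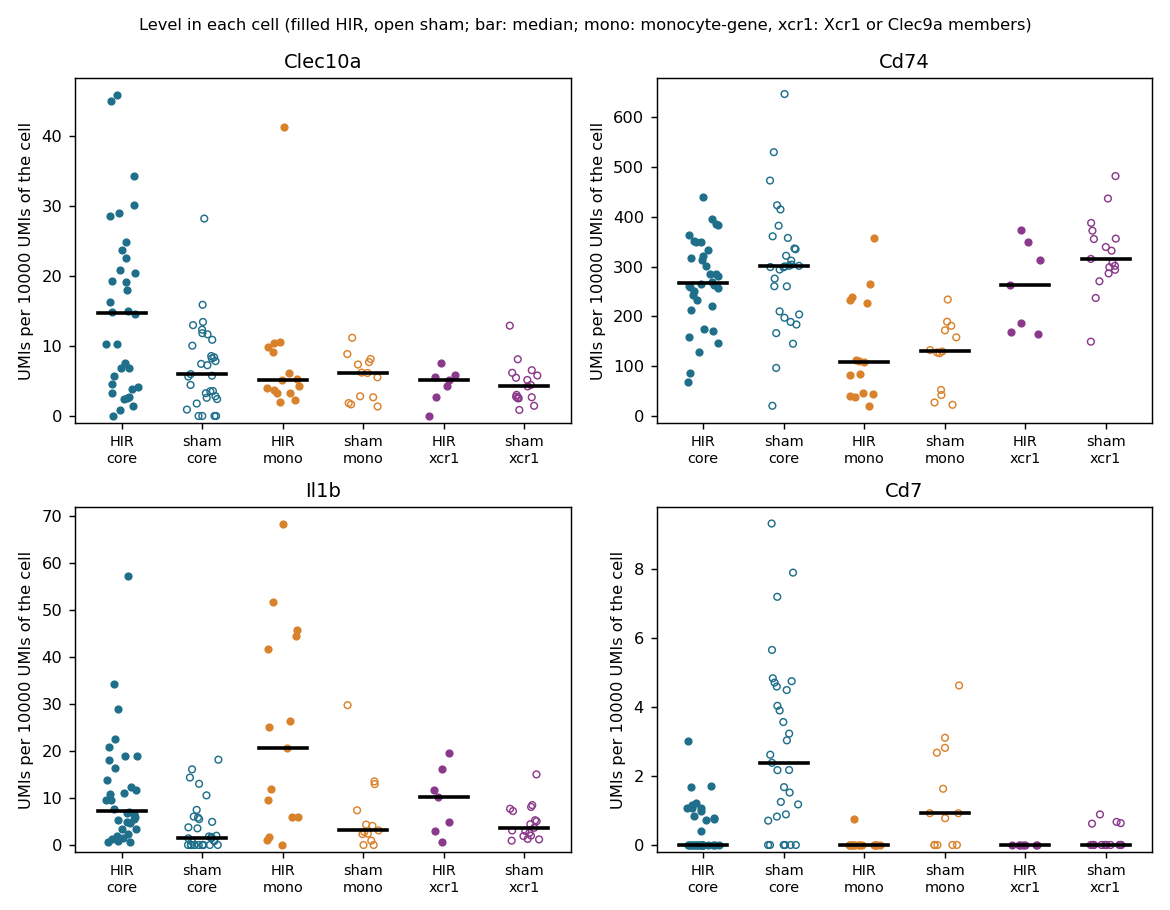
UMIs per 10000 UMIs of the cell (y axis) for Clec10a, Cd74, Il1b and Cd7 in core, monocyte-gene and Xcr1 or Clec9a cells; filled points are HIR cells, set left of open sham cells, and bars are medians. Il1b medians are higher in HIR and Cd74 ranges overlap, while Cd7 is found in 14 of 34 HIR core cells and 25 of 31 sham core cells.

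Under the same rule, core cells by themselves gave further names, and the ratio intervals of these genes left out 1. Nfil3, a transcription factor that acts in dendritic cell development, stood at 198 CPM in HIR and 78.8 CPM in sham. Grn, the lysosomal growth factor progranulin, was at 191 CPM in HIR and 78.8 CPM in sham, and Zc3hav1, an antiviral RNA-binding protein gene, at 175 CPM in HIR and 59.8 CPM in sham. All of these were higher in HIR. Lower in HIR were Slamf9, a receptor of the SLAM family, at 44.8 CPM in HIR and 136 CPM in sham, and Aif1, an actin-binding protein of myeloid cells, at 227 CPM in HIR and 500.0 CPM in sham. Clec10a, which chose the members and is given as description, stood at 1263 CPM in HIR and 720.0 CPM in sham in core cells, with a median of 14.7 UMIs per 10000 in HIR and 5.98 in sham.

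Monocyte-gene cells showed more genes over 2-fold apart, 172 of 2102 (8.18%) higher and 110 (5.23%) lower in HIR, from only 15 HIR and 13 sham cells. The doublet caller had marked 5 of these cells in HIR and 6 in sham, and the part of doublets in this set was not tested. Cxcl2 stood at 1986 CPM in HIR and 312 CPM in sham in them, and Il1b at 2443 CPM in HIR and 506 CPM in sham. Icam1, an adhesion molecule for leukocytes, stood at 277 CPM in HIR and 68.7 CPM in sham. Nfkbia, the feedback inhibitor of NF-kB, was at 1329 CPM in HIR and 412 CPM in sham, and Hsp90b1, a chaperone of the endoplasmic reticulum, at 954 CPM in HIR and 269 CPM in sham. These inflammatory and chaperone genes were higher in HIR in this set. Lower were Ccl2, which attracts monocytes, at 888 CPM in HIR and 1942 CPM in sham, and Anxa1, at 292 CPM in HIR and 625 CPM in sham. Fibroblast genes summed to 51.3 CPM in HIR and 2479 CPM in sham in these cells, and their part was not tested.

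In Xcr1 or Clec9a cells, 65 of 2304 genes (2.82%) were higher and 135 (5.86%) lower. Il1b was at 903 CPM in HIR and 456 CPM in sham and Nfkbia at 2405 CPM in HIR and 1146 CPM in sham, both with ratio intervals above 1. Erythroid genes summed to 39986 CPM in HIR and 423 CPM in sham in this small set. Neutrophil genes summed to 5348 CPM in HIR and 25.5 CPM in sham, and 1 cell held 60.4% of the S100a8 UMIs in HIR. Classical monocyte genes summed to 1214 CPM in HIR and 40.1 CPM in sham. Fibroblast genes were lower in HIR, at 98.6 CPM in HIR and 774 CPM in sham. The part of these other cell types in the values of this set, Il1b and Nfkbia included, was not tested.

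Genes of antigen presentation stayed close between the libraries. For the function lists, a gene counted as measured at 20 CPM in either library. Over all 4967 such genes, 53.1% were higher and 46.9% lower in HIR members, 1.73% over 2-fold higher and 2.01% over 2-fold lower; in core cells 54.1% were higher, 3.06% over 2-fold higher and 3.95% over 2-fold lower. Of 11 measured MHC class II genes, 4 were higher and 7 lower in HIR members with none over 2-fold (median log2 ratio -0.25), and in core cells 6 of 11 were higher (median 0.02). Ifi30, a thiol reductase that opens antigens for MHC class II, stood at 1968 CPM in HIR and 1594 CPM in sham. RT1-DOa, a chain of the peptide-exchange modulator DO, stood at 173 CPM in HIR and 122 CPM in sham. MHC class I presentation had 5 of 10 genes higher (median -0.05), with B2m, the light chain of class I molecules, at a ratio of 0.867 (0.823 to 0.912).

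Costimulation genes showed no common direction, with 4 of 8 higher (median 0.03). Cd86, the main ligand of Cd28, stood at 78.6 CPM in HIR and 136 CPM in sham, a ratio of 0.579 (0.414 to 0.801), and in core cells at 63.7 CPM in HIR and 106 CPM in sham. Cd83, a maturation marker, stood at 288 CPM in HIR and 229 CPM in sham. Cd86 was thus lower in HIR while Cd83 was higher. Maturation and migration genes were 4 of 6 higher in members (median 0.28) and 4 of 9 in core cells (median -0.06). Members with 3 or more UMIs of Ccr7, Fscn1 and Ccl22, genes of dendritic cells on their way to lymph nodes, numbered 1 in HIR and 4 in sham. Ccl22, a chemokine made by mature dendritic cells, stood at 16.0 CPM in HIR and 99.7 CPM in sham, from 1 HIR cell and 5 sham cells, too few for a direction.

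Chemokine ligands were mixed, 6 of 11 higher in members (median 0.25, 3 over 2-fold higher and 1 lower) and 4 of 12 in core cells (median -0.50, 3 over 2-fold higher and 3 lower). Cxcl10, an interferon-induced chemokine for activated T cells, stood at 153 CPM in HIR and 13.7 CPM in sham, in 13 HIR and 4 sham cells, and 1 cell held 37.4% of its HIR UMIs. Ccl4, a chemokine for monocytes and T cells, was at 117 CPM in HIR and 6.23 CPM in sham from 6 HIR and 3 sham cells. Both thus rest on few cells. Ccl2 stood at 676 CPM in HIR and 941 CPM in sham, a ratio of 0.718 (0.640 to 0.804). Ccl3, a chemokine for monocytes, stood at 30.7 CPM in HIR and 190.2 CPM in sham in core cells. Cxcl1, another neutrophil chemoattractant, was higher over all members, at 356 CPM in HIR and 236 CPM in sham, and lower in core cells, at 198 CPM in HIR and 351 CPM in sham. Of 7 measured chemoattractant receptors 1 was higher (median -0.12), and Cxcr4, the receptor of Cxcl12, stood at 57.3 CPM in HIR and 103 CPM in sham. That count was unstable. It became 4 of 7 (median 0.05) without called doublets and 0 of 7 (median -0.21) with C1q genes limited to under 3 UMIs.

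Cytokine, innate sensing and NF-kB genes leaned higher in HIR. Of 8 measured cytokine genes 7 were higher, 3 of them over 2-fold (median 0.63), and in core cells 5 of 6 (median 0.32). Beside Il1b they held the decoy receptor Il1r2, at 60.0 CPM in HIR and 3.74 CPM in sham from 11 HIR and 3 sham cells. Pattern recognition and inflammasome genes were 7 of 8 higher (median 0.70), and in core cells 6 of 8 (median 0.32). Nlrp3, the inflammasome sensor that leads to interleukin 1 beta release, stood at 109 CPM in HIR and 59.8 CPM in sham, a ratio of 1.83 (1.26 to 2.66).

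Of 15 NF-kB genes 14 were higher (median 0.50), and in core cells 10 of 14 (median 0.23). In monocyte-gene cells 14 of 16 were higher, 10 of them over 2-fold (median 1.12), where over all measured genes of that set 52.1% were higher and 11.5% over 2-fold higher. Nfkbia stood at 1327 CPM in HIR and 828 CPM in sham, a ratio of 1.60 (1.45 to 1.77) over all members and 1.28 in core cells. Nfkbiz, a nuclear co-activator, stood at 205 CPM in HIR and 119.7 CPM in sham. Tnip1, an inhibitor of the pathway, was higher over all members, at 87.9 CPM in HIR and 33.7 CPM in sham, but not in core cells, where the ratio was 0.869 (0.371 to 2.03).

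Lectin and Fc receptor genes were 9 of 12 higher (median 0.32), and in core cells 8 of 12 (median 0.16). The mannose receptor Mrc1 stood at 256 CPM in HIR and 197 CPM in sham, and the C-type lectin Clec4a1 at 176 CPM in HIR and 116 CPM in sham. Fcgr2b had a ratio of 1.37 (1.15 to 1.62). All 6 measured interferon response genes were higher over all members (median 0.56), against 4 of 6 in core cells (median 0.30), whereas Epsti1, outside that list, was lower as given above.

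Of 15 glucocorticoid-induced genes 10 were higher (median 0.34), and in core cells 11 of 15 (median 0.20). Mt1, a metallothionein, stood at 406 CPM in HIR and 278 CPM in sham and in core cells at 382 CPM in HIR and 196 CPM in sham. Errfi1, a brake on growth factor receptors, was at 108 CPM in HIR and 61.1 CPM in sham, and Dusp1, a MAP kinase phosphatase, at 2063 CPM in HIR and 1562 CPM in sham. Anxa1 of the same list, whose product limits inflammation, was lower, at 639.6 CPM in HIR and 896 CPM in sham. Of 19 immediate early genes 13 were higher (median 0.16, none over 2-fold), in core cells 14 of 19 (median 0.22) and in monocyte-gene cells 9 of 19 (median -0.12). Junb stood at 2959.6 CPM in HIR and 2347 CPM in sham, and the antiproliferative gene Btg2 at 1121 CPM in HIR and 784 CPM in sham. Klf4, a transcription factor needed for a subset of type 2 dendritic cells in mice, was lower at 394 CPM in HIR and 543 CPM in sham, a ratio of 0.726 (0.624 to 0.843). Tissue digestion at 37°C is known to induce immediate early genes, both lungs were digested alike, and its part was not tested.

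**Figure D4:**
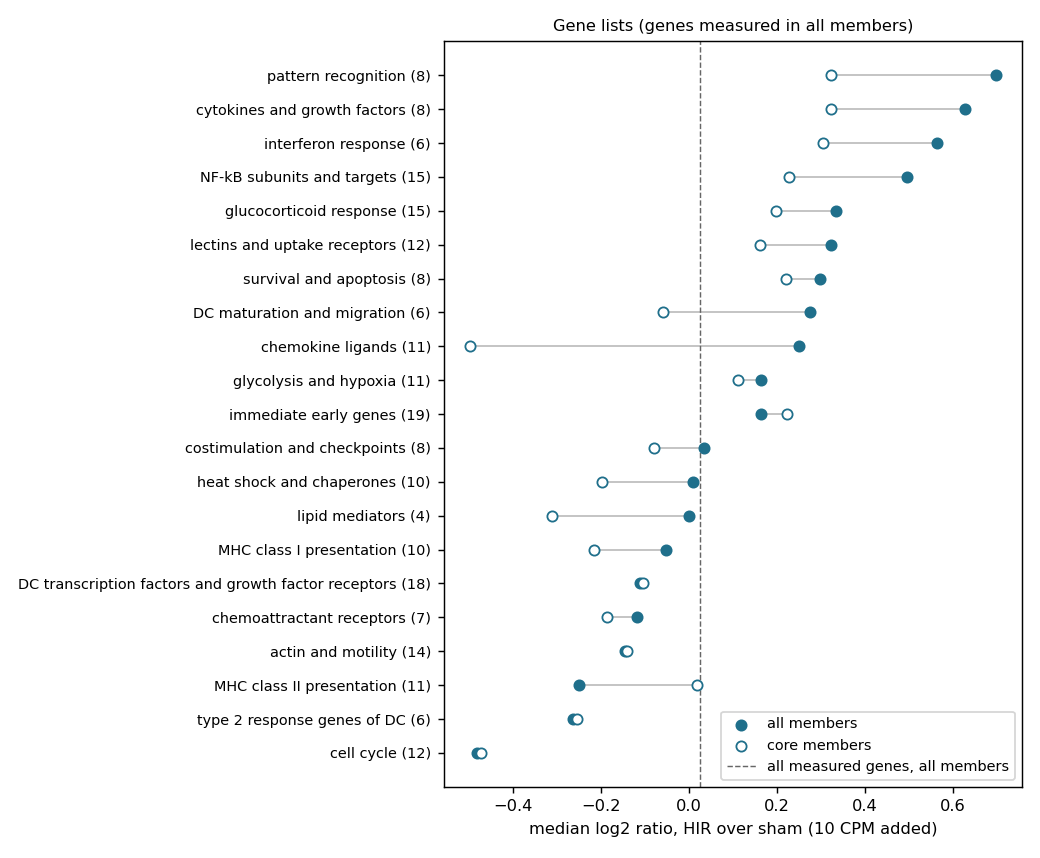
Median log2 ratio HIR over sham (x axis) of the measured genes of 21 function lists, filled points for all members and open points for core cells; the dashed line is the median of all measured genes, 0.02. Pattern recognition (0.70 in members, 0.32 in core cells), cytokine (0.63 and 0.32) and NF-kB genes (0.50 and 0.23) lie right of it and cell cycle genes (-0.48 and -0.47) left.

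Heat shock and chaperone genes depended on the set. Of 10, 5 were higher over all members (median 0.01), 2 in core cells (median -0.20) and 10 in monocyte-gene cells (median 0.45). Hspa5, the main chaperone of the endoplasmic reticulum, stood at 1182 CPM in HIR and 642 CPM in sham over all members and at 774 CPM in HIR and 717 CPM in sham in core cells. Of 18 transcription factors and growth factor receptors of the dendritic lineage 6 were higher (median -0.11). Irf8 stood at 215 CPM in HIR and 359 CPM in sham, and Spi1, the factor PU.1, at 418 CPM in HIR and 322 CPM in sham. Within Xcr1 or Clec9a cells Irf8 was at 910 CPM in HIR and 1022 CPM in sham. Over the other members it was higher in HIR, at 66.3 CPM against 15.1 CPM in sham. The part of the number of Xcr1 or Clec9a cells in the Irf8 difference was not tested. Type 2 response genes were 1 of 6 higher (median -0.26). Glycolysis and hypoxia genes were 7 of 11 higher (median 0.16), lipid mediator genes 2 of 4 (median 0.00) and survival genes 5 of 8 (median 0.30).

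Actin and motility genes leaned lower, with 3 of 14 higher in HIR members (median -0.15) and 3 of 14 in core cells (median -0.14). Tmsb4x, thymosin beta 4, which binds actin monomers, stood at 23545 CPM in HIR and 34686 CPM in sham, a ratio of 0.679 (0.666 to 0.692) over all members and 0.951 (0.925 to 0.979) in core cells. Actb, beta actin, stood at 3118 CPM in HIR and 4312 CPM in sham. Cell cycle genes were 3 of 12 higher (median -0.48) and 1 of 15 in core cells (median -0.47), with 3 genes over 2-fold lower in members and 4 in core cells. Top2a, a topoisomerase of dividing cells, stood at 24.0 CPM in HIR and 73.5 CPM in sham from 5 HIR and 7 sham cells. Mki67, the proliferation marker Ki-67, stood at 54.6 CPM in HIR and 53.6 CPM in sham from 10 HIR and 9 sham cells. The cell cycle values thus rest on few cells in either library.

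The same ratios were read in 4 other sets of barcodes. Barcodes rich in C1q genes, which mark macrophages, numbered 160 in HIR and 188 in sham, and barcodes with Plet1 or Krt79, genes of alveolar macrophages, 466 in HIR and 519 in sham. Barcodes with Siglech, a plasmacytoid gene, numbered 57 in HIR and 60 in sham, and Cd79 barcodes 546 in HIR and 837 in sham. In C1q-rich barcodes, 23 of 2869 genes (0.802%) were over 2-fold higher and 49 (1.71%) lower.

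Il1b had a log2 ratio of 1.62 in members, 0.66 in C1q-rich, -0.05 in Plet1 or Krt79 and 0.86 in Cd79 barcodes. In Siglech barcodes it was at 436 CPM in HIR and 0 CPM in sham, from 14 of 57 HIR and 0 of 60 sham cells. Sod2 had a log2 ratio of 2.47 in members and 1.03 in core cells, against 1.02 in C1q-rich and -0.50 in Plet1 or Krt79 barcodes. Neither gene was higher in HIR in Plet1 or Krt79 barcodes. Abcb10 was higher in HIR in each of these sets, with log2 ratios of 1.66 in members, 0.87 in C1q-rich, 0.70 in Plet1 or Krt79, 1.40 in Siglech and 1.18 in Cd79 barcodes. Clec10a was also present in C1q-rich barcodes, at 1012 CPM in HIR and 629 CPM in sham, a log2 ratio of 0.68 against 0.72 in members.

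Cd7 reached 20 CPM in members and in Siglech barcodes and in none of the other 3 sets. In Siglech barcodes it stood at 261 CPM in HIR and 388 CPM in sham, a log2 ratio of -0.55 against -2.14 in members. Lmna had log2 ratios of -1.27 in members, -0.50 in C1q-rich and 0.40 in Siglech barcodes. Lgals1 had -0.96 in members, -1.01 in C1q-rich and -1.28 in Cd79 barcodes, so it was lower in HIR outside the members as well. Of the function lists, cytokine genes had a median log2 ratio of 0.55 and NF-kB genes of 0.50 in C1q-rich barcodes, near their values in members. MHC class II genes had a median of -0.06 in C1q-rich and -0.87 in Siglech barcodes. Differences between these sets could not be tested with 1 library per group, and none is called particular to the Clec10a/Ccl17 cells.

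**Figure D5:**
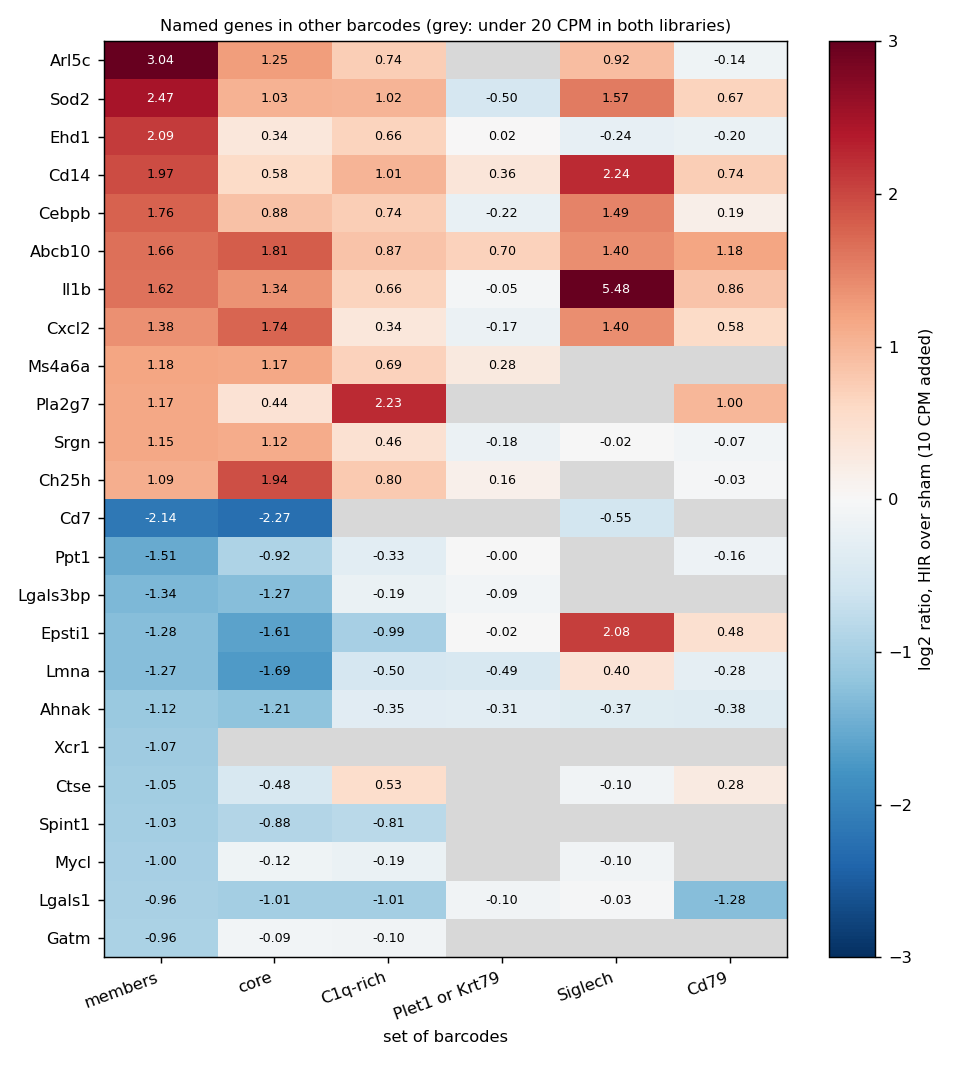
Log2 ratio HIR over sham (colour) of the 24 named genes (rows) in all members, core cells, and C1q-rich, Plet1 or Krt79, Siglech and Cd79 barcodes (columns); grey marks genes under 20 CPM in both libraries. Abcb10 is higher in HIR in every column, Cd7 is measured in members, core cells and Siglech barcodes only, and Epsti1 is lower in members and higher in Siglech barcodes.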

How the data were processed

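Single-cell RNA libraries of HIR and sham lung, 1 per group, were analysed from the UMI counts per gene and barcode that the authors deposited, which are whole numbers with no normalization. Per the submitters' processing notes, Cell Ranger 6.0, STAR, Seurat 4.0 and the mouse build mm10 were used; per the file headers, the matrices come from Cell Ranger 5.0.0, and all 32883 features carry rat Ensembl identifiers. The build and annotation behind these counts and the strand setting are not given in the sources used here, so counts of genes with near-identical copies, such as RT1 and hemoglobin genes, are uncertain. Ambient RNA correction is not given in the sources used here either, and the deposited counts held no barcode under 500 UMIs.

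Members were chosen by the stated rule, UMIs were summed over the members of each library and scaled to CPM, and the ratio HIR over sham was given an exact conditional binomial interval; log2 ratios had 10 CPM added to both levels. Shares of cells have exact Clopper-Pearson intervals. With 1 library per group there is no test and no p-value, cells are not replicates, and all intervals cover counting error only. A gene counted as over 2-fold apart at 50 CPM in either library and 20 UMIs over both, and as measured in a list at 20 CPM in either library. Named genes needed 100 CPM in either library, 50 UMIs over both, a ratio interval without 1 and, in the library with the higher level, a UMI in 10% of cells, under 25% of UMIs in 1 cell and at least 50% of the level over all kept barcodes. Left out were mitochondrial, ribosomal, hemoglobin, sex-linked, immunoglobulin and T cell receptor genes and features without a symbol. Marker genes of cell types other than dendritic cells were also left out, and the 12 largest ratios in each direction were named. List genes at 100 CPM or more in either library served as examples. Il1r2, Tnip1, Top2a, Mki67 and Ccl22 were also given, although they were under that level in both libraries. Genes for background on the sets were their leading genes over the other members.

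The members and all gene lists were chosen with earlier results of these data known. Of 435 list genes, 13 were not analysed here for want of a matching symbol. Doublets were kept and were left out as an alternative (Scrublet in scanpy 1.11.5, at 0.8% per 1000 barcodes, which called 722 barcodes in HIR and 919 in sham). Intervals were tested on simulated counts with known ratios. Python 3.11.15, numpy 2.4.6, scipy 1.17.1, pandas 2.3.3 and matplotlib 3.10.9 were used. Alternatives changed the choice of members, filters, scaling, pseudocount, depth and weighting of cells.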

Additional observations from a re-analysis of the deposited data

Results flagged for a closer look

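Epsti1, an interferon-induced gene, differed in opposite directions in 2 sets of barcodes. It was lower in HIR in Clec10a/Ccl17 cells, at 58.6 CPM in HIR and 157 CPM in sham (log2 ratio -1.28), and higher in HIR in Siglech barcodes, at 404 CPM in HIR and 88.1 CPM in sham (log2 ratio 2.08). In core cells the log2 ratio was -1.61 and in C1q-rich barcodes -0.99. The difference between the sets was not tested, since there was 1 library per group.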

How the results depend on the processing

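The ratio of shares of Clec10a/Ccl17 cells stayed between 0.910 and 1.20 under every alternative run, each with an interval that holds 1. The 49 genes over 2-fold higher in HIR, of 2580 tested, became 20 with 50 CPM added. They became 84 of 4959 tested at a minimum of 20 CPM and 84 of 5882 with no minimum. Under the other alternatives they numbered 46 to 71. Thinning left 1443 genes to test, of which 71 were over 2-fold higher and 49 over 2-fold lower. Counts from different numbers of tested genes are not directly comparable. The 45 genes over 2-fold lower became 13 with 50 CPM added, 94 at a minimum of 20 CPM, 94 with no minimum and 83 in core cells, a split chosen after seeing the data, and numbered 34 to 60 under the others. A larger added level shrinks ratios of low genes and a lower minimum tests more genes, by construction; the cause in core cells was not tested. Of 312 values of the 24 named genes under the alternatives, 273 moved by less than their counting interval, 39 moved by more (15 of them in core cells, 9 after thinning) and 0 changed direction. For the lists, the number of genes higher moved by more than 1.5 times in 29 of 294 list and alternative pairs, and the median had the opposite sign in 36; the medians of cytokine, pattern recognition, NF-kB and cell cycle genes kept their sign under all alternatives run. Scaling by the median ratio shifted all log2 ratios by -0.07. With 56 HIR and 61 sham cells, counting error limits every share and every gene under about 50 CPM. No paired analysis was possible because each group has 1 library.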
